A study of Mus musculus with 2 samples.

Results

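The cells described are the Pi16-positive, capsular-type fibroblasts of the mouse thymus, 630 of 11774 cells that passed the filters and of 2625 fibroblasts among them. They came from total thymic stroma of mice of the genotype E2F_M11, in which CRISPR-Cas9 had removed 2 E2F sites of the proximal promoter of Foxn1, the transcription factor of thymic epithelium. The tissue was digested, depleted of CD45-positive blood cells on magnetic beads and sequenced as 2 droplet single-cell libraries (10x Genomics, 3' tags), and every cell carries the same deletion. The age, sex and number of the mice, and whether the libraries came from separate animals, were not stated in the labels. Wild-type stroma was not analysed here, so no value below measures what the deletion does.

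The cells were chosen by measured values. A fibroblast had at least 20 UMIs (unique RNA molecules) of the collagen genes Col1a1, Col1a2 and Col3a1 per 10000 UMIs of the cell, and none of Epcam, which marks epithelium, or Ptprc, which encodes CD45. A fibroblast entered the Pi16 class when it had UMIs of at least 3 of the 5 genes Pi16, Smpd3, Ptx3, Anxa3 and Mfap5, and of more of these than of any of 3 other lists of 5 genes. Those lists, applied in the same way, gave 3 further fibroblast classes that served for comparison: the Cxcl14 class (Cxcl14, Gpm6b, Pi15, Mmp9, Col15a1) with 349 cells, the Inmt class (Inmt, Cpxm2, Penk, C7, Srpx) with 244 and the Postn class (Sod3, Cpe, Postn, Serpine2, Rgs16) with 368. A further 1034 fibroblasts fell in no class.

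Fibroblasts that express Pi16, a secreted protein of the CAP superfamily, lie in the outer coat of vessels, in fascia and in organ capsules of many tissues. They often also express Dpp4, a cell surface peptidase, and have been described as a reserve from which more specialised fibroblasts can form. In the thymus, capsular fibroblasts enclose the lobes and send septa inward, whereas medullary fibroblasts lie among the epithelium. Both supply matrix, growth factors for epithelium and signals for lymphoid cells.

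Promoter windows are shown for Pi16, which names the cells, and for Sema3c and Dpp4, which the rule did not use and whose levels were nearly equal in both libraries. They come from RefSeq on GRCm38.p6 and run from 250 bases before to 50 bases after the annotated start, 5′ to 3′ on the gene's strand. Capitals mark matches of 4 short motifs searched on both strands. The motifs and the share of all 32851 windows that held each were TATAAA (the TATA box) with 13.6%, TGANTCA (bound by AP-1) with 7.81%, GGAATG (bound by TEAD factors) with 14.7% and GGGCGG (bound by SP factors) with 35.7%. No motif overlapped another in these windows, and a match is a description of the letters only.
Pi16 (chr17:29318632-29318931, plus strand): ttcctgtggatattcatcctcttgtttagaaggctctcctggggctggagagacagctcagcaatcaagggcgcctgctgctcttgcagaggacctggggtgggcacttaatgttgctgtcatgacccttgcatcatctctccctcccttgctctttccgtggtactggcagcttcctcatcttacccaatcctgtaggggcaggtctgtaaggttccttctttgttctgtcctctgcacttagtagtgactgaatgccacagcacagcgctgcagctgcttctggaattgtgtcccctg
Sema3c (chr5:17574566-17574865, plus strand): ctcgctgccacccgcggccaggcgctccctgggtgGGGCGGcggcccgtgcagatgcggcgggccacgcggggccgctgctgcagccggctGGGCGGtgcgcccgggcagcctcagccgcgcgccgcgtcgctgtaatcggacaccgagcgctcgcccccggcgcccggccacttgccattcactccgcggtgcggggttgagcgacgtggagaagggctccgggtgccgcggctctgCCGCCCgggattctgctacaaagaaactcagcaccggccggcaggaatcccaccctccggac
Dpp4 (chr2:62412182-62412481, minus strand): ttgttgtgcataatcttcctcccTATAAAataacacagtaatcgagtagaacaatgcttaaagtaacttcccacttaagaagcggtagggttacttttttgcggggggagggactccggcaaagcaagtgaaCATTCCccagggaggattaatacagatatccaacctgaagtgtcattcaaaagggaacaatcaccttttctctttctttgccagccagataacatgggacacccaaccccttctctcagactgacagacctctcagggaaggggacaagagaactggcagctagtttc
The Sema3c window held 3 GGGCGG matches, beginning at positions -215, -159 and -12 relative to the RefSeq start. The Dpp4 window held 1 TATAAA match at -227 and 1 GGAATG match at -118. The Pi16 window held none of the 4 motifs.

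Library 1 held 41075328 UMIs in 5110 barcodes, of which 3588 passed the filters, and library 2 held 42583831 UMIs in 19163 barcodes, of which 8186 passed. The Pi16 class made up 319 of 1092 fibroblasts of library 1, which is 29.2% (exact 95% binomial interval 26.5 to 32), and 311 of 1533 of library 2, which is 20.3% (18.3 to 22.4). Of all cells that passed the filters these were 8.89% and 3.80%. The intervals do not overlap, but they cover counting error only, and the rule itself depends on depth. The median member had 11261 UMIs in library 1 and 2396 in library 2. The sums over members held 3866374 and 1460829 UMIs. The libraries shared 30 barcodes, and of these 2 were members in library 1 and 0 in library 2.

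Members of library 2 met the rule with fewer of its genes. In library 1, 43 members had 3 of the 5 genes, 154 had 4 and 122 had all 5, whereas in library 2 the numbers were 171, 132 and 8. The members with 3 genes had a median of 9552 UMIs in library 1 and 1649 in library 2. Just inside the threshold, the 43 and 171 members with 3 genes held Pi16 at 1041 and 3180 CPM (UMIs of the gene scaled to all UMIs of the summed cells). Just outside, cells with 2 of the genes and fewer of every other list numbered 6 and 145 and held 152 and 2039 CPM.

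**Figure D1:**
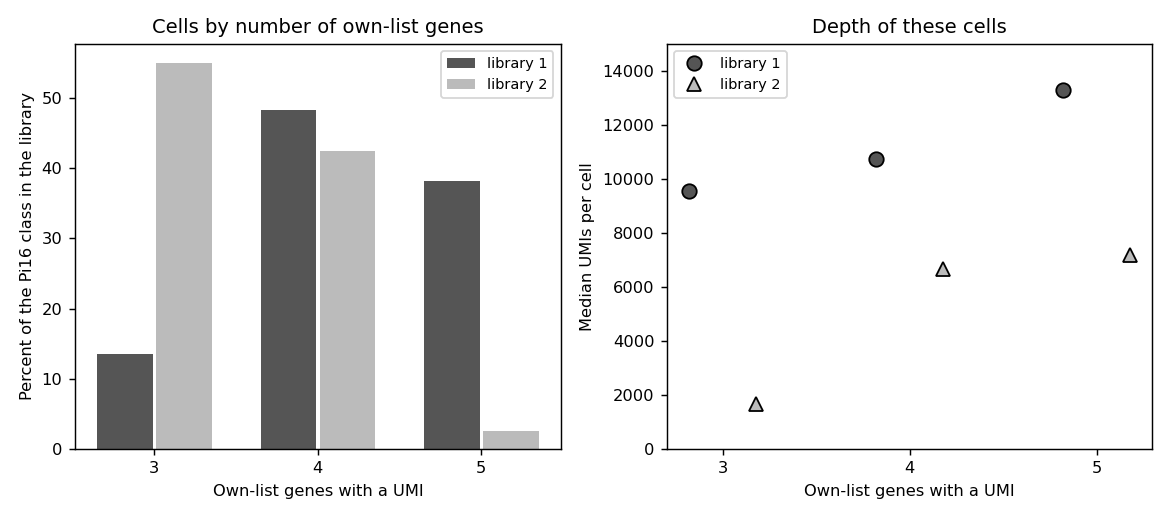
Left, percent of the Pi16 class of each library (bars) by the number of own-list genes with a UMI. Right, the median UMIs of these cells (points): members with 3 genes had a median of 1649 UMIs in library 2 and 9552 in library 1.

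The genes of the rule are given as a description, since they chose the cells. Pi16 (ENSMUSG00000024011, GRCm38 chromosome 17, 29317680 to 29330593, plus strand) stood at 3350 CPM in library 1 and 4941 CPM in library 2. In the other 3 classes it lay between 38.7 and 383 CPM. Mfap5, a protein of elastic microfibrils, stood at 2712 and 2573 CPM, and Anxa3, an annexin that binds membranes, at 814 and 703 CPM. These 3 genes differed little between the libraries. Smpd3, the neutral sphingomyelinase 2, stood at 4040 CPM in library 1 but at 647 CPM in library 2. Ptx3, a secreted pentraxin, stood at 339 and 51.3 CPM. The gate genes Col1a1 (3654 and 2494 CPM) and Col3a1 (8147 and 5075 CPM) were higher than in any of the other classes in the same library, whereas Col1a2 (5413 and 4633 CPM) was close to the Inmt class (5605 and 4695 CPM).

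**Figure D2:**
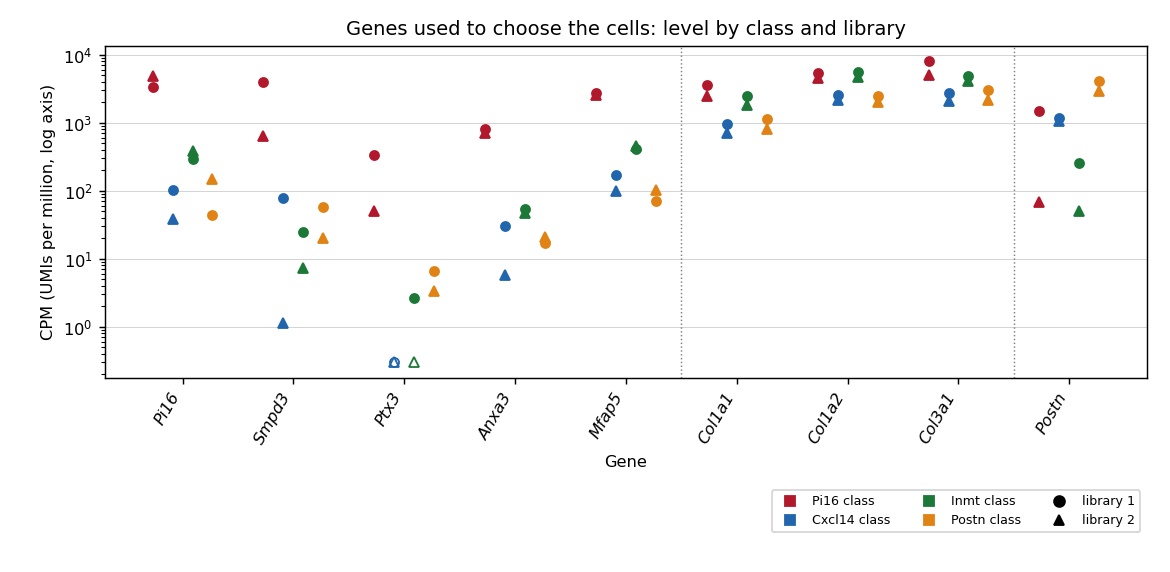
Level in CPM (log axis) of genes used to choose the cells, by class (colour) and library (circle 1, triangle 2). Open symbols at the lower edge mark sums without a UMI. Smpd3 of the Pi16 class stood at 4040 CPM in library 1 and 647 CPM in library 2.

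The label rests on the 4 markers Pi16, Smpd3, Mfap5 and Fn1, of which the rule used all but Fn1, so their sum and the Pi16 share are descriptions. Together they reached 17020 and 10245 CPM in the class, against 171 to 1000 CPM in the other classes. All 6 general fibroblast markers (Pdgfra, Dcn, Lum, Mgp, Gsn, Serping1) were detected and summed to 23210 and 26100 CPM. At 2000 UMIs per cell, a Pi16 UMI was found in 87.3% of 316 members of library 1 and 96.2% of 185 of library 2 (98.1% of all members there without thinning). Epcam-positive cells, which should lack Pi16 and measure free RNA in the droplets, had it in 2.60% and 8.45% of cells at the same depth. The Inmt class had it in 31.1% and 26.8% of cells. Smpd3 was found at this depth in 89.6% and 55.1% of members, and in 12.5% and 12.3% of Epcam-positive cells. Without thinning, 47.1% and 19.2% of Epcam-positive cells had a Smpd3 UMI. Dpp4 was found in 44.9% (exact 95% interval 39.4 to 50.6) and 40% (32.9 to 47.4) of members, against 0.487% and 2.30% of Epcam-positive cells. Without thinning the Dpp4 shares of members were 86.5% and 50.8%. Whether Epcam-positive cells express Smpd3 or Dpp4 themselves was not tested, so for these genes their share may hold more than free RNA.

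The libraries stood apart in ways that touch the results below. RNA of 14 thymocyte markers summed to 130 CPM in the Pi16 class of library 1 and 1271 CPM in library 2, with 1 (Ptcra) and 0 of them at 0. In the other classes this sum was 151 to 221 CPM and 538 to 748 CPM, so the Pi16 class was lowest in library 1 and highest in library 2. RNA of 9 mesothelial markers, none at 0 in either library, summed to 616 and 235 CPM in the Pi16 class, and to between 6.83 and 193 CPM in the others. Mural markers, of smooth muscle and pericytes, summed to 117 and 137 CPM in the Pi16 class, with 2 (Cnn1, Mcam) and 1 (Cnn1) of 12 at 0, and to between 415 and 1674 CPM in the others. Endothelial markers summed to 87.2 and 113 CPM, with 3 (Cdh5, Tie1, Emcn) and 1 (Cldn5) of 10 at 0, against 42.0 to 165 CPM in the others. Thymic epithelial markers summed to 116 and 435 CPM, with Psmb11 at 0 in library 2, against 51.6 to 313 CPM. Haemoglobin RNA summed to 4.66 and 354 CPM, and was at most 3340 CPM in the others, in the Postn class of library 2. Foxn1, the gene whose promoter was edited, had 2 and 4 UMIs in the class (0.517 and 2.74 CPM). These tags lie outside the deleted sites.

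To ask which genes set these fibroblasts apart, raw UMIs were summed per class and library and tested across all genes with edgeR's quasi-likelihood test, with the library as a block. The Pi16 class was set against the mean of the 3 other classes. Of 10517 genes that the rule did not use, 1572 (14.9%) were called higher in the Pi16 class and 1312 (12.5%) lower, with p-values adjusted over the whole table (Benjamini-Hochberg, threshold 0.05). Without TMM scaling the calls were 1261 higher and 1845 lower, and the median of all genes moved to -0.11 on the log2 scale. The p-values measure how class differences vary between these libraries, a spread that may be technical. Genes that vary together with the genes of the rule, or with the collagen gate, were bound to differ in part, so the calls describe the class and do not define it independently.

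The Inmt class was the nearest to the Pi16 class by these counts. Against it, 774 genes (7.36%) were called higher and 739 (7.03%) lower. Against the Cxcl14 class the numbers were 1459 (13.9%) and 1294 (12.3%), and against the Postn class 1433 (13.6%) and 1383 (13.2%). The Inmt class also has the smallest sums, with 1143289 and 537211 UMIs, which lowers the number of calls it can give. These contrasts share the sums of the Pi16 class.

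Fibroblast progenitor and adventitial genes were higher in the Pi16 class throughout the list. All 22 tested genes were called higher and 0 lower, beside 14.9% and 12.5% of all genes. Their median was 3.31 on the log2 scale, against 0.01 over all genes tested. The list was drawn up with earlier results of these data known, so its direction is not independent evidence. Sema3c, a secreted guidance protein (ENSMUSG00000028780, chromosome 5, 17574281 to 17730268), stood at 533 and 511 CPM in libraries 1 and 2. It stood at 88.3 and 85.6 CPM in the Inmt class and at 5.70 to 13.8 CPM in the others, a log2 difference of 4.67 (SE 0.127, adjusted p = 1.84e-15). Dpp4 (ENSMUSG00000035000, chromosome 2, 62330073 to 62412231) stood at 333 and 348 CPM, against 5.50 to 32.4 CPM in the other classes (4.65, SE 0.150, adjusted p = 5.82e-15). For both genes the members were above every other sum and the libraries nearly equal.

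Other genes of this list had the same shape. Ackr3, a scavenging receptor for Cxcl12, stood at 380 and 350 CPM against at most 55.8 CPM elsewhere (log2 difference 4.71, SE 0.146). Cd248, a surface glycoprotein of stromal progenitors, stood at 1221 CPM in both libraries against 71.5 to 344 CPM. Creb5, a transcription factor, stood at 340 and 283 CPM against at most 23.6 CPM. Efhd1, a mitochondrial calcium-binding protein, stood at 190 and 194 CPM against at most 11.2 CPM. Limch1, an activator of myosin, stood at 167 and 128 CPM against at most 9.31 CPM. Cd55, which protects cells from complement, differed less, at 418 and 229 CPM against 35.2 to 101 CPM (2.27, SE 0.166, adjusted p = 1.09e-09). The smallest differences of the list were those of Cd34 (0.99) and Ly6a (0.77), both stem cell antigens that every fibroblast class carried at over 500 CPM. Against the Inmt class alone 21 of the 22 were called higher, beside 7.36% of all genes. Scara5, a ferritin receptor, was the exception, with 601 and 782 CPM in the Pi16 class and 599 and 689 CPM in the Inmt class (adjusted p = 0.454).

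**Figure D3:**
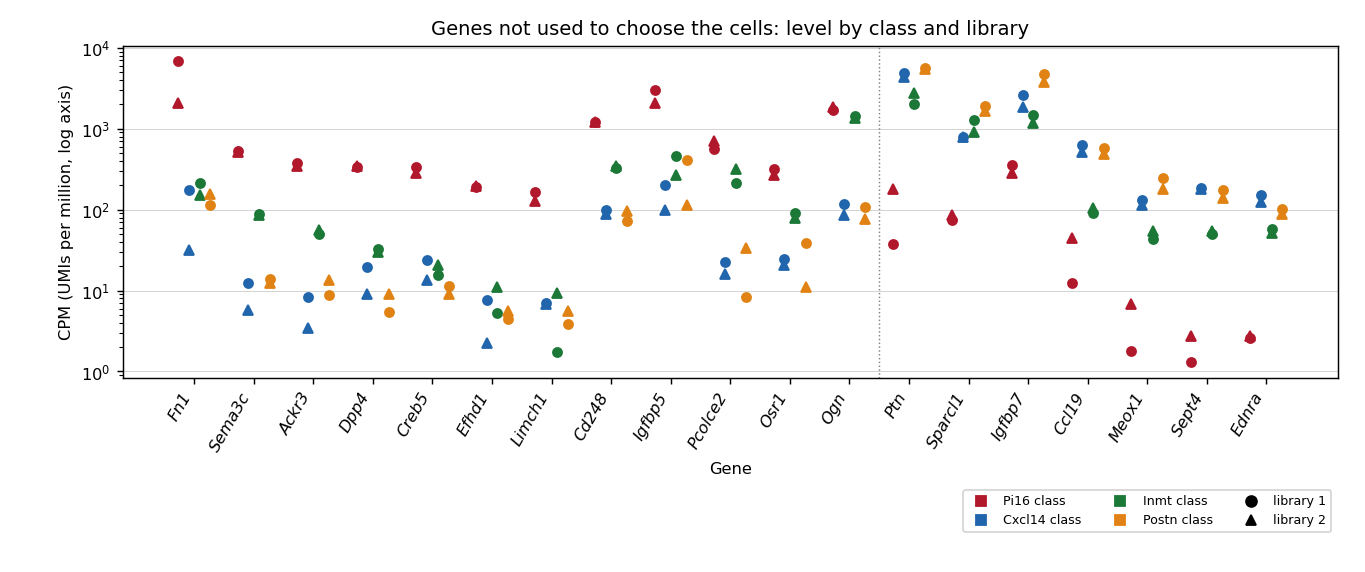
Level in CPM (log axis) of genes not used to choose the cells, by class (colour) and library (circle 1, triangle 2), with genes called higher in the Pi16 class left of the dotted line and genes called lower right of it. Sema3c stood at 533 and 511 CPM in the Pi16 class and Ptn at 38.0 and 178 CPM.

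Fibronectin was the most abundant RNA among the largest increases. Fn1 (ENSMUSG00000026193, chromosome 1, 71585520 to 71653200, minus strand) stood at 6918 CPM in library 1 and 2084 CPM in library 2. In the other classes it lay between 31.9 and 213 CPM, and the log2 difference was 5.04 (SE 0.241, adjusted p = 1.61e-12). Fn1 is also among the markers that the label rests on, so its direction is not independent evidence. At 2000 UMIs per cell, an Fn1 UMI was found in 91.8% and 87.0% of members, and in 7.63% and 10.7% of Epcam-positive cells. Whether the latter express Fn1 themselves was not tested. Most members thus had it, at different levels in the 2 libraries.

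Several of the largest differences were in genes that were almost silent in the other classes. For these the fitted fold depends on a prior count, so the ratio of the summed CPM is given with its 95% counting interval. Mrgprg, an orphan receptor best known in sensory neurons, had 2761 UMIs in the class and 11 in the other 3, a ratio of 316 (176 to 634). It stood at 705 CPM in library 1, a ratio of 282 (158 to 566), and only 23.3 CPM in library 2, at least 17.9-fold higher than the floor of 3 counts allows for the others. Duoxa1, which matures a peroxide-forming oxidase, was 40 times higher (24.4 to 70.5), with 116 and 39.7 CPM. Car8, a protein related to carbonic anhydrases, was 39.5 times higher (23.7 to 71.2), with 99.3 and 59.6 CPM, and 22.9 times (10.1 to 64.1) in library 2 alone. Krtdap, a secreted protein of differentiating keratinocytes, was 33.1 times higher (17.7 to 69.9). Sult1e1, the oestrogen sulfotransferase, was 12.6 times higher (8.84 to 18.5), which was 7.25 times (4.91 to 11.04) in library 1 and 58.8 times (22.5 to 219) in library 2. It was not called by DESeq2 (adjusted p = 0.189). Col8a1, a short-chain collagen, was 10.3 times higher (7.56 to 14.4), which was 7.38 times (5.04 to 11.2) in library 1 and 18.9 times (10.98 to 35.4) in library 2. Edn1, the vasoconstrictor endothelin, stood at 199 and 118 CPM against at most 16.6 CPM elsewhere (log2 difference 5.15, SE 0.227, adjusted p = 5.16e-13). All of these were named only because they were higher in the Pi16 class than in each other class in both libraries, so this agreement is no further result.

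Of 22 elastic fibre and microfibril genes tested, 13 were called higher and 4 lower, beside 14.9% and 12.5% of all genes. Their median was 0.76. Against the Inmt class alone 6 were called higher and 5 lower, beside 7.36% and 7.03% of all genes. Loxl1, an enzyme that crosslinks elastin, stood at 568 and 570 CPM against 27.3 to 166 CPM (log2 difference 3.21, adjusted p = 1.97e-14). Fbn1, the main microfibril protein, stood at 2254 and 1496 CPM against 289 to 495 CPM (2.34, adjusted p = 1.12e-13). Emilin2, an elastic fibre glycoprotein, stood at 449 and 364 CPM against 16.8 to 97.1 CPM (3.33, adjusted p = 1.34e-13). Mfap4, a microfibril-associated protein, was called higher (3.22), but at 61.0 and 273 CPM it was not called against the Inmt class, which had 63.0 and 121 CPM (adjusted p = 0.0705). Eln itself, elastin, differed by 0.52. The 4 lower genes were Emilin1, Ltbp1 and Ltbp4, which bind latent TGF-beta or limit its processing, and Fbln1. Ltbp1 stood at 155 and 154 CPM, like the Inmt class at 137 and 138 CPM, against 792 to 955 CPM in the Cxcl14 and Postn classes.

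Collagens and other matrix genes were divided, with 14 of 37 called higher and 15 lower, beside 14.9% and 12.5% of all genes. Their median was 0.03, and -0.09 without TMM scaling. Higher genes were led by Col8a1, Fn1 and Ogn, a small proteoglycan, followed by the fibril-associated collagens Col14a1 (2.70) and Col12a1 (2.22). Ogn at 1701 and 1850 CPM was close to the Inmt class at 1431 and 1350 CPM, and far above the other classes at 77.4 to 117 CPM. Lower genes included Sparcl1, an anti-adhesive matrix protein, at 74.5 and 86.9 CPM against 797 to 1935 CPM (-3.74, SE 0.137, adjusted p = 3.32e-14). The basement membrane collagen Col4a1 (-1.23) and the small proteoglycans Bgn (-1.70) and Lum (-1.28) were also lower.

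Among matrix proteases and their inhibitors, 12 of 26 were called higher and 9 lower, beside 14.9% and 12.5% of all genes. Their median was 0.24. Pcolce2, which enhances procollagen cleavage, stood at 562 and 709 CPM against 8.25 to 316 CPM (3.93, adjusted p = 1.8e-13). The protease Prss23 (2.81) and the procollagen peptidase Adamts2 (1.91) were also higher. Mmp3, stromelysin, stood at 12.9 and 25.3 CPM against 127 to 253 CPM (-3.34, adjusted p = 8.3e-11), and Mmp11 was lower by 2.00 on the same scale.

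Antagonists of WNT and BMP and IGF-binding proteins were mostly higher. Of 17 tested, 11 were called higher and 1 lower, beside 14.9% and 12.5% of all genes, with a median of 1.11. Igfbp5 stood at 3053 and 2055 CPM against 99.1 to 457 CPM (3.61, SE 0.133, adjusted p = 3.64e-14), and Igfbp6 at 1621 and 1800 CPM against 123 to 745 CPM (2.89). The WNT-binding proteins Sfrp4 (3.81) and Sfrp2 (3.71) were also high in the Inmt class, though still called against it (adjusted p = 0.0189 and 0.00319). Sfrp2 stood at 294 and 239 CPM in the Pi16 class, at 177 and 167 CPM in the Inmt class and at 4.56 to 14.6 CPM in the others. Igfbp7 was the 1 gene called lower, at 354 and 281 CPM against 1167 to 4703 CPM (-2.74, SE 0.0919, adjusted p = 9.53e-15). Against the Inmt class alone the list was even, with 5 higher and 6 lower, beside 7.36% and 7.03% of all genes.

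Growth factors went both ways, with 12 of 29 called higher and 10 lower, beside 14.9% and 12.5% of all genes. Their median was 0.02, and -0.10 without TMM scaling. Over all alternatives it ran from -0.45 to 0.07, lowest with thinned cells, where 18 genes could be tested. Higher genes included Bmp7, at 47.1 and 53.4 CPM against at most 4.49 CPM (23.4 times higher by summed CPM, 13.7 to 43.4). Wnt10b, at 27.9 and 27.4 CPM, had 148 UMIs in the class and 4 in the other 3 classes, a ratio of 46.6 (17.8 to 173). Wnt5a (1.34) and Rspo1 (2.50), a WNT co-activator, were also higher. Bmp4, which acts on thymic epithelium, was lower, at 54.1 and 76.7 CPM against 97.3 to 316 CPM (-1.25, SE 0.142, adjusted p = 6.72e-07).

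Fgf7 and Fgf10, fibroblast growth factors that act on thymic epithelium, differed by class. Fgf7 stood at 29.7 and 25.3 CPM, between the Inmt class at 98 and 78.2 CPM and the Postn class at 9.35 and 6.73 CPM, and was not called against the mean (0.20, SE 0.180, adjusted p = 0.471). It was called higher against the Postn class (1.85, adjusted p = 2.76e-05) and lower against the Inmt class (-1.60, adjusted p = 4.57e-06). Fgf10 stood at 20.2 CPM in library 1 and 71.9 CPM in library 2, against 33.0 to 188 CPM (-0.95, SE 0.246, adjusted p = 0.00548), and lost the call under DESeq2 (adjusted p = 0.0679) and in 3 of the other alternatives. Its difference in log2 CPM was -1.70 with library 1 alone and -0.16 with library 2 alone. Igf1, at 185 and 362 CPM, was not called (adjusted p = 0.949) and lay under the Inmt class at 573 and 555 CPM.

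Chemokines, cytokines and adhesion genes that act on lymphoid cells were more often lower. Of 30, 15 were called lower and 5 higher, beside 12.5% and 14.9% of all genes, with a median of -0.52. With genes at 3 UMIs or fewer in a class set to a floor of 3 counts per class, the median was -0.56, and the medians of the other 11 lists did not move. Ccl19, which draws CCR7-positive thymocytes and dendritic cells, stood at 12.4 and 45.2 CPM against 628 and 510 CPM in the Cxcl14 class 587 and 484 CPM in the Postn class and 90.1 and 106 CPM in the Inmt class (-3.57, SE 0.282, adjusted p = 3.51e-09). This value belongs to 1 of 2 features that carry the symbol, and the other had 0 UMIs in all 4 classes. Against the Inmt class alone the difference was -1.93. Flt3l (-1.96), Il15 (-1.97), Il7 (-1.87), Icam1 (-1.89) and Vcam1 (-1.53) were lower too. The 5 higher genes were Tnfrsf11b, the decoy receptor for RANK ligand, and Ccl2, Ccl7, Csf1 and Il33. Tnfrsf11b stood at 34.4 and 10.95 CPM, with a ratio of summed CPM of 15.1 (7.98 to 32.3) in library 1 and 3.16 (1.27 to 8.52) in library 2. It did not pass the low-count filter without the mesothelial-marker cells. There 4 of 29 genes of the list were called higher and 15 lower, beside 1560 and 1326 of all 10480 genes. Ccl2 and Ccl7 rest on library 1: Ccl2 stood at 117 and 25.3 CPM and Ccl7 at 164 and 49.3 CPM, and with library 2 alone their log2 differences were 0.19 and -0.12. Cxcl12, which recruits thymic progenitors, was not called (0.01, SE 0.158, adjusted p = 0.968), with 130 and 79.4 CPM against 85.2 to 140 CPM.

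Among 27 mesenchymal transcription factors, 10 were called higher and 8 lower, beside 14.9% and 12.5% of all genes. Their median was 0.24, and ran from -0.18 to 0.39 over the alternatives. Osr1 stood at 314 and 266 CPM against 11.2 to 91.8 CPM (3.09, SE 0.151, adjusted p = 2.19e-12). Ebf2 (2.38), Klf4 (1.37), Hoxa5 (2.79) and Tbx5 (3.08) were higher as well. Meox1 was at 1.81 and 6.85 CPM against 43.7 to 249 CPM (-4.91, SE 0.298, adjusted p = 5.85e-11), Foxs1 at 1.81 and 4.11 CPM against 16.6 to 98 CPM (-4.30), and Nr2f2 differed by -2.65. Meox1, Foxs1 and Nr2f2 were lowest in the Pi16 class in each library.

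The largest decreases were in genes that the other 3 classes carried, with the exception of Pla2g7, which the Inmt class held at only 7.87 and 7.45 CPM. Ptn, the growth factor pleiotrophin, stood at 38.0 and 178 CPM against 2047 to 5573 CPM (-5.30, SE 0.332, adjusted p = 9.52e-11). Sept4, a septin of the cytoskeleton, stood at 1.29 and 2.74 CPM against 49.9 to 185 CPM (-5.89, SE 0.265). Ednra, the receptor for endothelin, stood at 2.59 and 2.74 CPM against 52.1 to 153 CPM (-4.97, SE 0.233), so the class was high in the ligand gene Edn1 and low in the receptor gene. Ifitm1 (-5.03), the mitochondrial protein gene Ndufa4l2 (-5.01), P2ry1 (-4.92), Lin7a (-5.82) and the lipase gene Pla2g7 (-5.56) completed these. Pdgfra, a general fibroblast receptor, was also lower, at 228 and 286 CPM against 376 to 771 CPM (-1.01, adjusted p = 2.71e-07), and so was Pdgfrb (-1.38). Mural marker RNA was lowest in the Pi16 class, as given above, and its part in these differences was not tested.

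**Figure D4:**
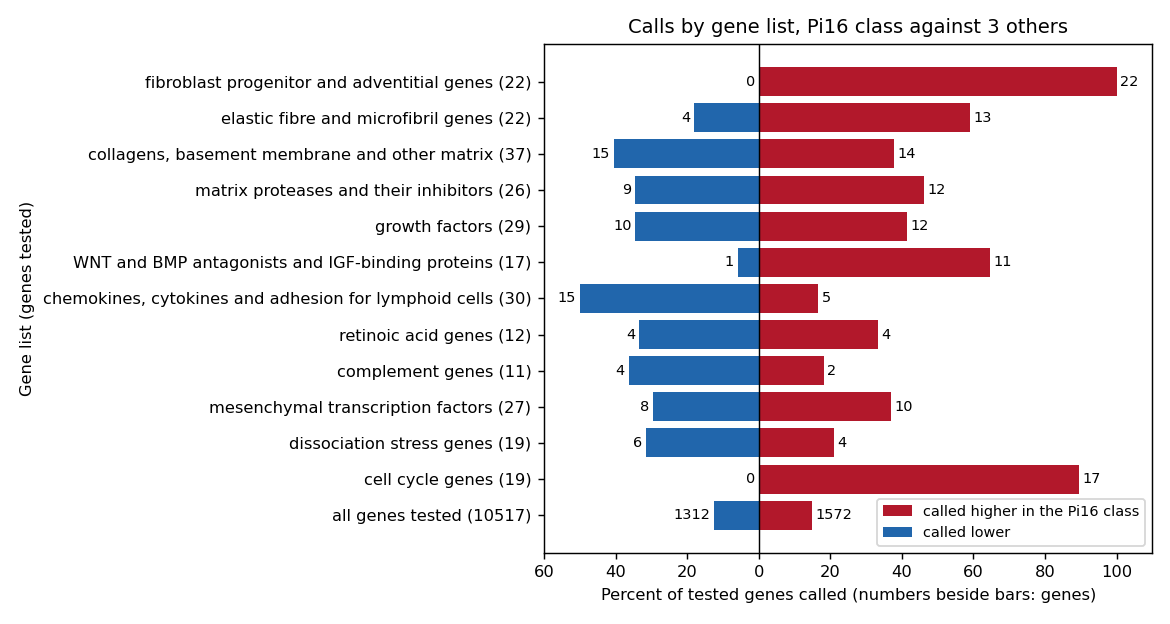
Percent of the tested genes of each list called higher (red, right) or lower (blue, left) in the Pi16 class, with gene numbers beside the bars. All 22 progenitor and adventitial genes and 17 of 19 cell cycle genes were called higher, beside 1572 of 10517 of all genes.

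Cell cycle genes were called higher in 17 of 19 cases and lower in 0, beside 14.9% and 12.5% of all genes. Their median was 1.53. Mki67, a marker of dividing cells, stood at 63.4 and 66.4 CPM against 14.6 to 46.7 CPM (1.21, SE 0.171, adjusted p = 1.11e-05). Against the Postn class alone 9 of 19 were called higher, beside 13.6% of all genes. DESeq2 called 7 of 19 higher against the mean, beside 859 of all 10517 genes. At 2000 UMIs per cell, an Mki67 UMI was found in 5.06% of members of library 1 (exact 95% interval 2.92 to 8.09) and in 2.89% to 4.73% of the other classes. In library 2 the shares were 15.7% (10.8 to 21.7) and 6.82% to 11.1%. Epcam-positive cells had 4.87% and 15.5%, but epithelium also divides, so they give no background for this gene. UMIs of 3 or more thymocyte markers were found in 188 of 311 members of library 2 (60.45%) and 53 of 319 of library 1 (16.61%). In library 2 these members held Mki67 at 106 CPM and the rest at 21.7 CPM, whereas in library 1 the values were 36.8 and 69.6 CPM. Without cells that had any thymocyte marker UMI, 82 and 19 members were left, 1 of the 19 genes could be tested and 0 were called.

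Smaller lists were divided, beside 14.9% of all genes called higher and 12.5% lower. Of 12 retinoic acid genes tested, 4 were called higher and 4 lower (median 0.21, and -0.17 to 0.30 over the alternatives). Aldh1a3, an enzyme that makes retinoic acid, stood at 171 and 89.7 CPM against at most 39.4 CPM (4.66, adjusted p = 6.96e-11). Crabp1, a binding protein, was called lower (-2.02) but not under DESeq2 (adjusted p = 0.0905) and 3 other alternatives, and its difference with library 2 alone was -0.49. Rdh10, which makes retinal, was called lower against the mean, at 19.9 and 20.5 CPM, but was not under the Inmt class at 13.1 and 14.9 CPM, and it lost the call with thinned cells (adjusted p = 0.149) and without thymocyte-marker cells (adjusted p = 0.288). Of 11 complement genes, 2 were called higher and 4 lower (median -0.17, and -0.68 to -0.08 over the alternatives). The lower genes were led by Masp1 at 1.04 and 4.79 CPM against 20.9 to 175 CPM (-4.42, adjusted p = 8.64e-10). Of 19 dissociation stress genes, 4 were called higher and 6 lower (median 0.07, -0.06 without TMM scaling, and -0.16 to 0.13 over the alternatives). Hspa1a and Hspa1b, near-identical copies whose reads can be split uncertainly, were lower by 1.5 and 1.54 on the log2 scale.

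A small share of the members carried mesothelial RNA. UMIs of 2 or more of the 9 mesothelial markers were found in 35 of 319 members of library 1 (11%) and 6 of 311 of library 2 (1.93%). In library 1 these 35 cells held Pi16 at 332 CPM against 3738 CPM in the other 284 members, and Fn1 at 1017 against 7675 CPM. Mrgprg stood at 13.6 against 794 CPM and Ptx3 at 0 against 382 CPM. Smpd3 (996 CPM), Anxa3 (177 CPM) and Mfap5 (712 CPM), which the rule counts, were present in them. The 6 cells of library 2 had Pi16 at 468 CPM against 5062 CPM in the rest. In both libraries these cells went against the label in part, with collagen genes (Col1a1 1360 and 1039 CPM) but far less Pi16 than the other members. Their Pi16 lay within (library 1) or above (library 2) the range of the 3 other classes. Fn1 (1017 and 468 CPM), Dpp4 (143 and 104 CPM) and Sema3c (193 and 156 CPM) were above all of those classes.

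Some calls rest on those cells. Upk3b, a surface protein of mesothelium, stood at 126 and 31.5 CPM in the class, and at 0 and 0.703 CPM in members with fewer than 2 of the markers. Slpi, a protease inhibitor, stood at 181 and 15.7 CPM in the class and at 0.875 and 4.22 CPM in those members. Upk3b, Msln, Gpm6a and Wt1 are themselves among the markers used for the split. Aldh1a2, the retinoic acid enzyme of mesothelium, was called higher with all cells (3.44, adjusted p = 5.46e-06) and not without the mesothelial-marker cells (1.47, adjusted p = 0.104). Clu, clusterin, was called higher with all cells (1.06) and was at -1.05 without them (adjusted p = 0.0896). Wt1, also a marker of mesothelium, kept its call without them (3.61, adjusted p = 1.66e-09), and members with fewer than 2 of the markers held it at 59.5 and 91.4 CPM. The 22 calls of the progenitor list and the 17 cell cycle calls were the same in number without these cells, and 1560 genes were called higher and 1326 lower over all genes.

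**Figure D5:**
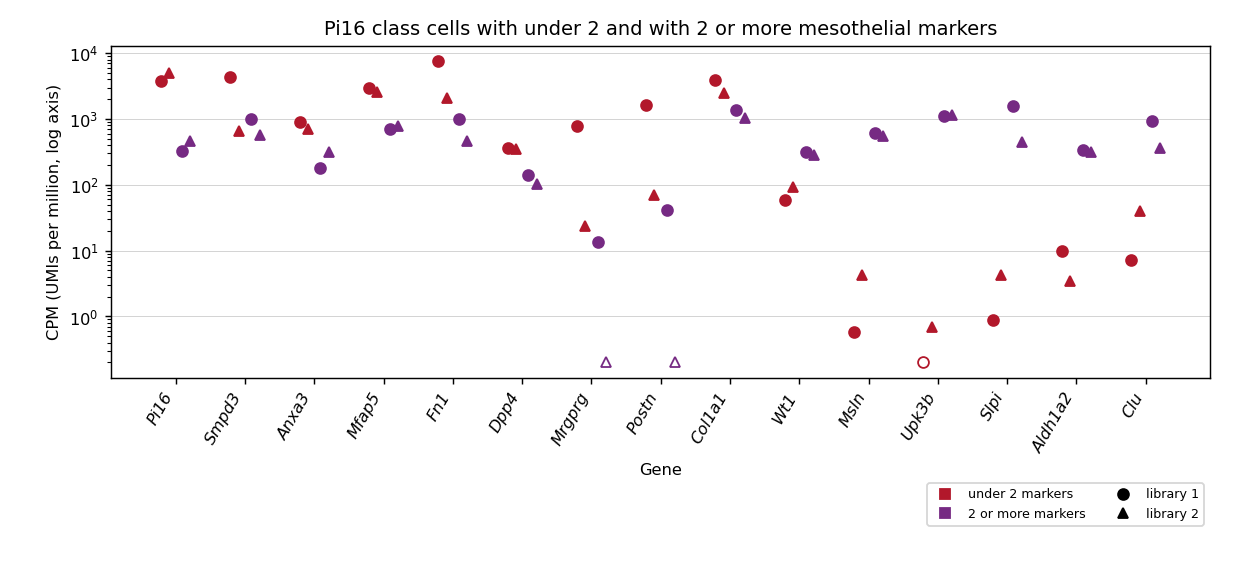
Level in CPM (log axis) of 15 genes in members with UMIs of under 2 (red) and of 2 or more (purple) mesothelial markers, by library (circle 1, triangle 2). Open symbols at the lower edge mark 0 UMIs. Pi16 stood at 332 CPM in the 35 marker-rich members of library 1 and at 3738 CPM in the other 284.

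Members of the 2 libraries differed from each other in a set of genes. In the class of either library, 1590 genes stood at 100 CPM or more. Of these, only genes with more than 3 UMIs in the class of each library were compared. Among the genes compared, 13 were at least 4-fold higher in library 1 and 13 at least 4-fold higher in library 2. Genes absent or nearly absent from the class of 1 library were thus not counted. With 1 library each, this comparison has no test. Higher in library 1 were Col6a5, a collagen VI chain (636 against 13.0 CPM), Mrgprg, Postn, the matricellular protein periostin (1477 against 67.8 CPM), Daglb, a diacylglycerol lipase (684 against 54.1 CPM), Lgals7, Slpi, Ltc4s, Ptx3, Smpd3, Hlf, Col6a6, Ccl2 and Krt19. Postn in the pooled other classes stood at 2163 and 1569 CPM, and Daglb at 29.1 and 23.4 CPM, so neither differed there by as much as 2-fold, as was the case for 6 of the 13 genes. Lgals7, Slpi, Krt19, Smpd3, Col6a5 and Ptx3 were over 2-fold higher in library 1 in the other classes too, and Mrgprg was nearly absent from them. In members with under 2 mesothelial markers, Slpi was not higher in library 1 (0.8755 against 4.22 CPM). Its level in the class came from members with 2 or more of these markers (1585 and 442 CPM). Higher in library 2 were thymocyte genes (Trbc1, Trbc2, Tcf7), haemoglobin genes (Hba-a1, Hbb-bs), epithelial or class II genes (Cd74, H2-Aa, H2-Eb1, Ccl21a, Wfdc18), Hmgb2, Mfap4 and Ptn. All but Mfap4 and Ptn of these were also over 2-fold higher in library 2 in the other classes.

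The share of members with a UMI also differed between the libraries for some of these genes. Among members with fewer than 2 mesothelial markers at 2000 UMIs, a Postn UMI was found in 60.1% of 281 in library 1 (exact 95% interval 54.2 to 65.9) and in 7.26% of 179 in library 2 (3.92 to 12.1). Mrgprg was found in 50.9% (44.9 to 56.9) and 3.35% (1.24 to 7.15), and Daglb in 59.8% and 5.59%. Dpp4 was found in 44.1% and 45.3%. In library 1 the 169 members with a Postn UMI held Smpd3 at 5396 CPM, Fn1 at 8787 CPM and Daglb at 1012 CPM. The rest of these 281 members held 2518, 4112 and 402 CPM. In library 2 only 13 members had a Postn UMI, and they were not higher in these genes. Smpd3 stood at 462 CPM in them and 605 CPM in the rest, Fn1 at 923 and 2012 CPM, and Daglb at 0 and 30.1 CPM. In so few cells the Smpd3 and Daglb values rest on few UMIs and give no order. In library 1, Pi16 (3704 and 4732 CPM), Mfap5 (2778 and 2884 CPM) and Dpp4 (331 and 299 CPM) stood closer together. Smoc2, a matrix protein (328 and 866 CPM), Igf1 (115 and 308 CPM) and Pdgfra (207 and 353 CPM) were lower there in members with a Postn UMI. These splits were chosen after the values had been seen, and no test was made between cells. Postn is a gene of a competing list, so the rule keeps such a cell only where its own list counts more genes.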

How the data were processed

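For each of the 2 libraries the authors deposited a matrix of raw UMI counts, without normalisation. Reads were processed with Cell Ranger 7 and Seurat 4 on mm10 by the submitters' processing notes, whereas the file headers give version 6.0.0 of Cell Ranger. How the authors filtered barcodes is not given in the sources used here. Each matrix held 32285 features.

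A barcode was kept when it had 500 genes or more, 1000 UMIs or more and no more than 10% mitochondrial UMIs. No doublet caller was run. Cells with an Epcam or Ptprc UMI were left out by the rule, and results were recomputed without cells that held a thymocyte marker UMI or, as an alternative chosen after seeing the data, 2 or more mesothelial markers. Counts were summed per class and library (8 sums) and tested with edgeR 4.0.16 in R 4.3.3 (glmQLFit, glmQLFTest, TMM, filterByExpr, library as block) over 10540 genes. The fit had 3 residual degrees of freedom, and the common biological coefficient of variation was 0.101. The 23 genes of the rule in the fit were left out of all counts. A call needs an adjusted p (Benjamini-Hochberg, all genes) of 0.05 or less, and SE is the log2 difference divided by the root of F. Intervals of shares are exact (Clopper-Pearson). Cells were thinned to 2000 UMIs for shares. The test was checked on simulated data.

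Named genes were every gene of the rule, the 12 largest higher and 8 largest lower calls with the same direction in 6 of 6 comparisons and at least 50 CPM, up to 3 per list and direction, and a set of genes of interest. Results on some of these genes are not reported here. Predicted, mitochondrial and ribosomal protein genes were excluded. Further list members are named where a count is described. They, the genes that differ between libraries and the genes of the splits within the class were chosen after their values were seen. The members and the 12 gene lists were chosen with earlier results of these data known. Alternatives were DESeq2 1.42.0, no TMM scaling, other filters on genes and cells, other thresholds of the rule, thinned cells, no library block, and each library alone. Values of each library alone are differences of log2 CPM with a prior count of 2, not of the fit. At low counts they lie closer to no difference than the fit does. Gene positions are from GENCODE vM21 (GRCm38). Figures were drawn with matplotlib 3.10.9.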

Additional observations from a re-analysis of the deposited data

How the results depend on the processing

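Against the mean of the other classes, calls were 859 higher and 768 lower with DESeq2, 716 and 551 with cells thinned to 2000 UMIs, and 461 and 325 without cells that held a thymocyte marker UMI, where fewer cells and genes remain. Against the Cxcl14, Inmt and Postn classes DESeq2 called 811, 356 and 755 genes higher and 733, 417 and 836 lower, and thinned cells 677, 328 and 673 higher and 601, 320 and 623 lower. Without a replicate block for the library the counts were 1199 and 988. Replicate numbers only name the libraries and each holds all 4 classes, so the block is part of the design. With 1 library left there are no residual degrees of freedom, so leaving out a library gave differences of log2 CPM without a test. Of 89 named genes called, 67 kept the call in every alternative that could test them.

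Log2 differences that changed sign were Ccl7 (-0.12 without replicate 1, 1.89 without replicate 2) and Clu (-0.28 with at least 4 genes of the rule, -1.05 without mesothelial-marker cells). Igf1 and Cxcl12, neither of them called, also did. Igf1 was at -0.0070 with at least 2 and -0.11 with at least 4 genes of the rule, -0.019 with thinned cells, -0.10 without TMM scaling, -0.78 without thymocyte-marker cells and -0.42 without replicate 2 (0.44 without replicate 1). Cxcl12 was at -0.031 with DESeq2 and with at least 2 genes of the rule, -0.054 with thinned cells, -0.11 without TMM scaling and -0.48 without replicate 1 (0.34 without replicate 2).

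The share of fibroblasts in the class was 25.3% in library 1 with at least 4 genes and 34.9% with a collagen gate of 40. In library 2 it was 29.7% with at least 2 genes, 9.13% with at least 4, 18.1% and 27.1% with gates of 10 and 40, 24.4% at 3000 UMIs and 1000 genes, 23.6% at a mitochondrial limit of 5% and 23.8% with the rule applied to thinned cells. After thinning, the fibroblast gate of library 1 held 1542 cells with 435 members, against 1092 and 319 without it. The gate thus admitted cells there that it leaves out at full depth. Thinned to 1000 UMIs, shares of members with a UMI were 79.3% and 87.1% for Pi16 in libraries 1 and 2, 85.3% and 72.7% for Fn1, 29.5% and 22.2% for Dpp4, and 2.82% and 10.3% for Mki67. Without thinning they were 93.4% for Pi16 and 96.2% for Fn1 in library 1, 86.5% and 50.8% for Dpp4, and 16.9% and 22.2% for Mki67. Causes other than fewer cells, genes or UMIs were not tested. The median member of library 2 had 2396 UMIs, which limits the shares found without thinning there.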
